A study of Mus musculus with 6 samples.

Results

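The genes described here are 39 smooth muscle and contractile apparatus genes, among them muscle actins, calponins, transgelins, myosins, tropomyosins, filament proteins and the transcription factors that drive them. The symbols were listed by function, with earlier results of these libraries known in which Asb2, Actg2 and Acta1 had the greatest increases of the CRY1 line. Beyond function, members were selected on their total count, and genes with fewer than 60 counts summed over the 6 libraries were left out. This left 36 of the 39 genes, of 27179 genes in the count tables. The 36 also passed the count filter of the test. Just inside the limit lay Tnnt2 (73 counts) and Myh11 (154 counts), and just outside it lay Cnn1 (25 counts). Tnnt2 passed only through the CRY1 line, since its other 4 libraries held 28 counts in all. These 4 genes (Asb2, Actg2, Acta1 and Tnnt2) get no test in comparisons with the CRY1 line.

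The study compared 3 lines of mouse embryonic fibroblasts. The CPN-/- line lacks the clock genes Cry1, Cry2, Per1, Per2, Nr1d1 and Nr1d2, and the CPN-/- CRY1 and CPN-/- CRY2 lines carry all of these deletions and express exogenous CRY1 or CRY2 from a virus, under a viral and not the endogenous promoter. Each CRY line was grown from a single colony, so the CRY protein and the history of the clone cannot be told apart, and no line with an empty vector was analysed here. Each line had 2 mRNA-seq libraries from separate RNA preparations, with 25957409 to 36106949 counts per library. The lines are called below the parent (CPN-/-), CRY1 and CRY2 lines. Levels are given as CPM, counts scaled to the library total with TMM factors, and folds as log2 fold changes ± SE from a model over all 14069 tested genes. A gene is said to be called, to have risen or to have fallen only at an adjusted p under 0.05 by the quasi-likelihood test of edgeR, adjusted by Benjamini-Hochberg and written below as edgeR adjusted p.

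Contraction in smooth muscle and in myofibroblasts rests on actin filaments that carry tropomyosin, caldesmon and calponin, and on myosin II, whose regulatory light chain is phosphorylated by myosin light chain kinase and dephosphorylated by a phosphatase with a targeting subunit of the Ppp1r12 family. Many of these genes are driven by serum response factor (SRF), which binds a DNA element named the CArG box. Its coactivators are myocardin, which is the smooth muscle factor, and the actin-sensing proteins MRTF-A and MRTF-B (genes Mkl1 and Mkl2), which are held in the cytoplasm by free actin monomers.

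The fibroblast label was checked against marker lists. Of the listed fibroblast genes, Col1a1, Col1a2 and Vim had at least 56781 counts in every library. Others were low: Col3a1 had 258 to 381 counts, Dcn 1 to 61, Thy1 1 to 7 and Lum 0 or 1. Of the 9 tested fibroblast markers, 1 was higher (Pdgfrb) and 2 were lower (Pdgfra and Dcn) in the CRY1 line against the parent line. In the CRY2 line against the parent line, 2 were higher (Dcn and Postn) and 0 lower. In the CRY1 line against the CRY2 line, 0 were higher and 4 lower (Col1a2, Pdgfra, Dcn and Postn). The summed level of the 11 listed fibroblast genes was 10503 to 13979 CPM in the parent line, 13303 to 13592 in the CRY1 line and 19277 to 19429 in the CRY2 line. Of the 8 smooth muscle markers, all of them members, Myocd was at 0 in every library, Cnn1 had 2 to 8 counts and Myh11 15 to 34 counts. Their summed level was 1477 to 1847 CPM in the parent line, 5202 to 5390 in the CRY1 line and 2219 to 2461 in the CRY2 line, nearly all of it from Acta2 and Tagln. The 4 pericyte genes summed to 85.7 to 162 CPM, 239 to 241 CPM and 193 to 195 CPM in the 3 lines in the same order, with Kcnj8 and Abcc9 at 0 in every library and Cspg4 called higher in the CRY1 line. The 22 striated muscle markers summed to between 3.82 and 4.70 CPM in every library, with at most 1 count of Myod1 or Myog in any. The sums of the 5 endothelial genes were 0.503 to 1.04 CPM, of the 5 macrophage genes 1.92 to 2.37 CPM and of the 5 epithelial genes 0.111 to 0.556 CPM. The part of other cells in the results below was not tested, and in bulk libraries more cells of a type and more RNA per cell cannot be told apart.

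Promoter sequence was read from RefSeq (GRCm38.p6) for 34 of the 39 members, as 45 promoters of 300 bases (250 before and 50 after the start). Actg2, Tagln, Myh11, Sorbs3 and Myocd had no entry. Both strands were searched. A CArG box was present in 8 of the 45 promoters (17.8%), each of another member, compared with 1.63% of 32851 mouse promoters. The stretches upstream of the start in these members and in Acta2 are shown because they hold the element that SRF binds. In Acta2, Myl6 and Srf the start used lay inside the full span of the gene, and so does the stretch shown. Capitals mark the CArG box. In Asb2 they also mark the E-box CACGTG, the element bound by CLOCK-BMAL1, and in Acta2, where no exact CArG box was found, they mark the stretches that differ from it in 1 letter.
Asb2, chr12:103356002-103356121, minus strand: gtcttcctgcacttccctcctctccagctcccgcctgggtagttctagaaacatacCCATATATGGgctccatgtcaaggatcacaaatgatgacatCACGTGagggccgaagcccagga
Acta1, chr8:123894776-123894895, minus strand: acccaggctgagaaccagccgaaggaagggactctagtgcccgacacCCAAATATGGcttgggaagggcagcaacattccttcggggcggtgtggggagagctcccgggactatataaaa
Acta2, chr19:34255374-34255493, minus strand: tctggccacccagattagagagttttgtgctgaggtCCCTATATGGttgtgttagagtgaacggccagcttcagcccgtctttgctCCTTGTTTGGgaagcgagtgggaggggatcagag
Actc1, chr2:114052898-114052937, minus strand: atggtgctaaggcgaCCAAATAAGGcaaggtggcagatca
Cnn2, chr10:79988529-79988568, plus strand: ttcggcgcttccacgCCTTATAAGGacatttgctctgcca
Myl6, chr10:128493035-128493074, minus strand: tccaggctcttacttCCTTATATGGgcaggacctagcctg
Myl9, chr2:156775288-156775327, plus strand: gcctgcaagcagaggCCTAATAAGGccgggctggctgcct
Srf, chr17:46556200-46556259, minus strand: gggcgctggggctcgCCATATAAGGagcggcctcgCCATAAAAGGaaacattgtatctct
Vcl, chr14:20929156-20929195, plus strand: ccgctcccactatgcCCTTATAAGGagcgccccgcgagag

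The CArG box began 64 bases before the start in Asb2, 73 in Acta1, 47 in Actc1, 56 in Cnn2, 50 in Myl6, 161 in Myl9 and 227 in Vcl, and Srf held a pair, at 82 and 62 bases. CACGTG occurred in 1 of the 45 promoters (2.22%), that of Asb2, and in 7.15% of all promoters; it did not overlap the CArG box. A CArG box with at most 1 mismatch occurred in 19 of the 45 promoters (42.2%), against 21.1% of all promoters. CATTCC, the core bound by TEAD factors, occurred in 16 (35.6%), against 14.7% of all promoters, and TATAAA in 6 (13.3%), against 13.6%. A match is a description of these letters and not evidence of binding. Among the 8 members with an exact CArG box, Asb2, Acta1 and Myl9 had the greatest folds in the CRY1 line, whereas Cnn2 and Myl6 were not called in any comparison and Actc1 had 1 count in all 6 libraries.

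Of the 32 members with a test in the CRY1 line against the parent line, 16 were called higher and 1 (Des) lower, or 50% and 3.12% of them, where 11.2% of all tested genes were called higher and 13.1% lower. Since results of this comparison were known when the list was drawn up, nothing is read from that count. In the CRY2 line against the parent line, 7 of 36 members (Asb2, Actg2, Acta1, Myl9, Lmod1, Sorbs3 and Synpo2) were called higher and 1 (Tagln2) lower, or 19.4% and 2.78%, where the background was 2.58% higher and 4.08% lower. This comparison shares the parent libraries with the first, in which Asb2, Actg2 and Acta1 were known beforehand. Without them, 4 of 33 members were called higher and 1 lower, or 12.1% and 3.03%. In the CRY1 line against the CRY2 line, 5 of 32 members (Acta2, Tagln, Tagln2, Tpm4 and Pdlim7) were called higher and 2 (Mylk and Synpo2) lower, or 15.6% and 6.25%, where the background was 7.72% higher and 8.57% lower. The median log2 fold change of all 36 members was 0.59, 0.33 and 0.23 in the 3 comparisons in this order, and that of all tested genes was -0.0073, -0.0076 and -0.0046. Without Asb2, Actg2 and Acta1, the median of the other 33 was 0.47, 0.30 and 0.15.

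**Figure D1:**
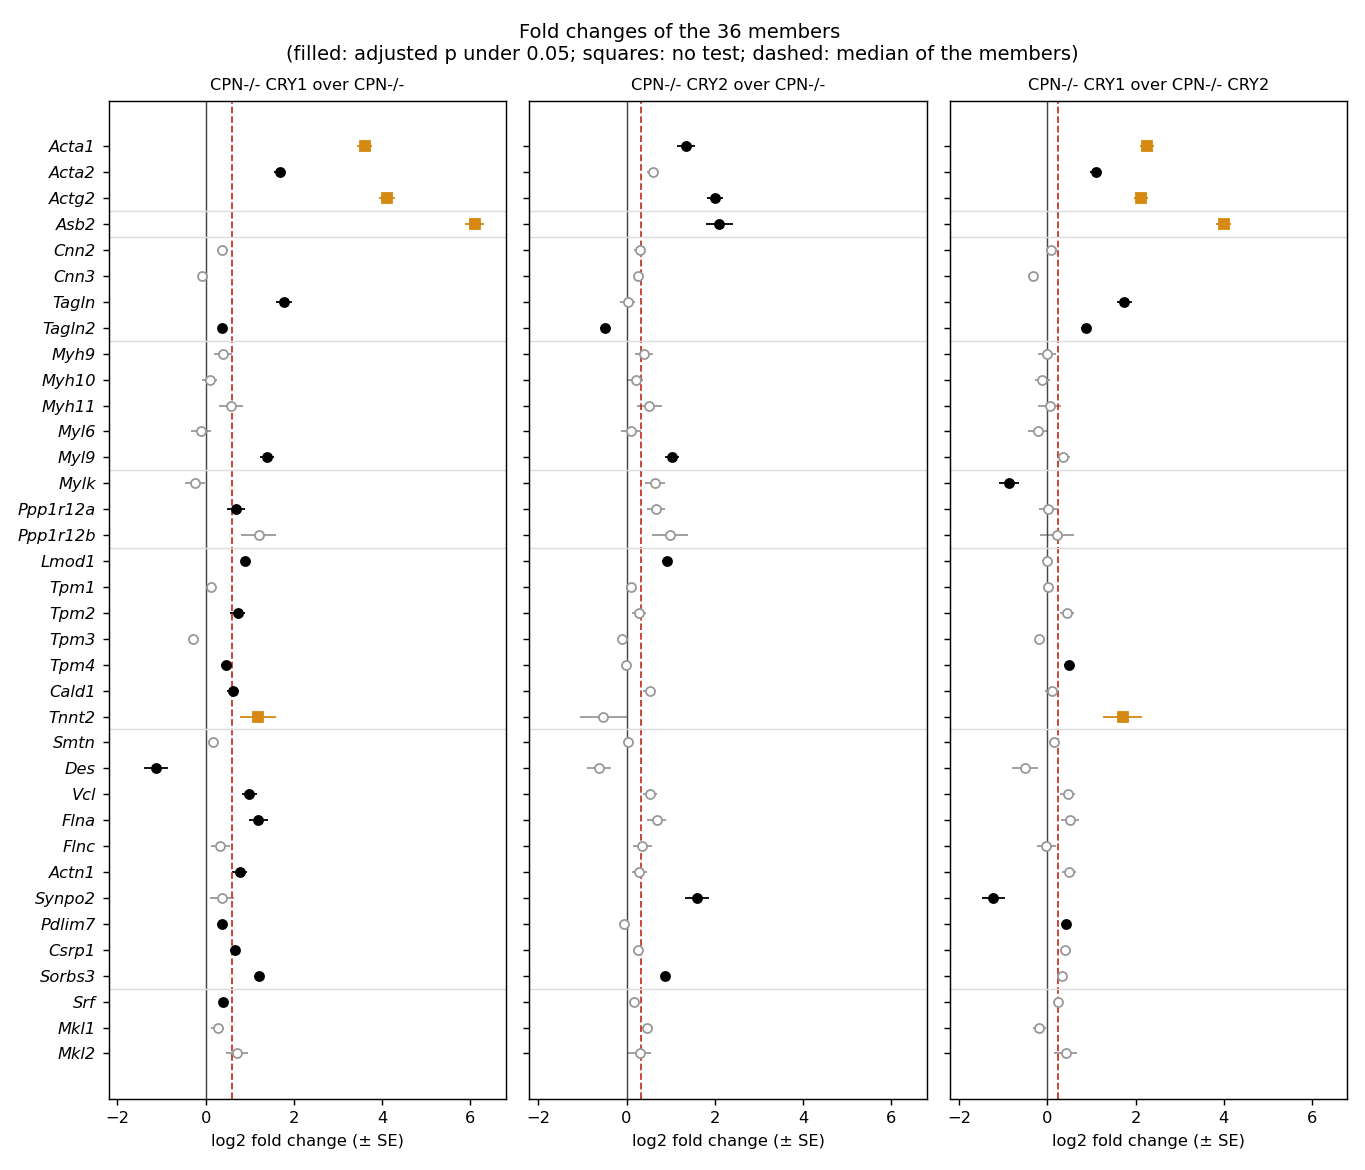
Log2 fold changes ± SE of the 36 members in the 3 comparisons, in the order of their roles. Filled circles had an adjusted p under 0.05, open circles did not, squares mark Asb2, Actg2, Acta1 and Tnnt2 where they get no test, and the dashed line is the median of the members (0.59, 0.33 and 0.23). Values spread from -1.13 to 6.10 in the CRY1 line against the parent line and from -0.62 to 2.10 in the CRY2 line against the parent line.

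The count of called members depended on single libraries. It was 17 in the CRY1 line against the parent line with all libraries, 5 without either CRY1 library, 8 without either CRY2 library, and 28 or 24 without parent library 1 or 2. Of these 17 calls, 5 (Acta2, Tagln, Myl9, Lmod1 and Sorbs3) held in every refit run, and each of the other 12 was lost without either CRY1 library. Of the 8 calls in the CRY2 line against the parent line, that of Actg2 held in every refit run, and the other 7 were each lost without at least 1 CRY2 library, with 2 calls left without either. Of the 7 calls between the CRY lines, that of Tagln held in every refit run.

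Asb2, Actg2 and Acta1 had the greatest folds of the members in the CRY1 line against the parent line. The 4 muscle actins encode the skeletal (Acta1), vascular smooth muscle (Acta2), cardiac (Actc1) and enteric smooth muscle (Actg2) isoforms, and Asb2 encodes the substrate-recognition subunit of a muscle ubiquitin ligase that targets filamins. Asb2 lies at chr12:103321142-103356001 on the minus strand, with 10 exons in its longest coding transcript. Its level was 0.22 and 0.192 CPM in the parent libraries (7 and 5 counts), 14.1 and 14.9 in the CRY1 line (511 and 460 counts) and 0.992 and 0.815 in the CRY2 line (27 and 22 counts). The 3 lines did not overlap, and the CRY1 line stood far above the other two. The log2 fold change was 6.10 ± 0.21 (68.7-fold) in the CRY1 line against the parent line and the fold over the CRY2 line was 16 (SE of 0.17 on the log2 scale). These values were known beforehand and are given without a test. In the CRY2 line against the parent line it rose by 2.10 ± 0.30 (4.29-fold, edgeR adjusted p = 0.00921). The tests of Asb2, Actg2 and Acta1 in the CRY2 line use the same parent libraries as the comparison known beforehand.

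Actg2, at chr6:83512909-83536251 on the minus strand, was at 2.92 and 4.07 CPM in the parent line, 60.4 and 60.2 in the CRY1 line and 12.6 and 15.2 in the CRY2 line. Every CRY2 library was thus above both parent libraries and below both CRY1 libraries. The log2 fold change was 4.12 ± 0.18 (17.4-fold) in the CRY1 line against the parent line, without a test, and Actg2 rose by 2.00 ± 0.18 (4.01-fold, edgeR adjusted p = 0.00172) in the CRY2 line. Acta1, at chr8:123891758-123894775, followed the same order of lines, with 0.723 and 0.844, 9.68 and 9.37, and 2.02 and 1.96 CPM. Its log2 fold change was 3.61 ± 0.17 (12.2-fold) in the CRY1 line, without a test, and 1.35 ± 0.20 (2.55-fold, edgeR adjusted p = 0.0101) in the CRY2 line. The cardiac actin Actc1 had 1 count, in a CRY1 library, and 0 in the other 5 libraries.

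Acta2, at chr19:34240336-34255585, was by far the most abundant muscle actin per kilobase of transcript. Its level was 1157 and 1426 CPM in the parent line, 4230 and 4099 in the CRY1 line and 1842 and 2055 in the CRY2 line, so that the lines did not overlap. It rose by 1.69 ± 0.14 in the CRY1 line against the parent line (3.22-fold, edgeR adjusted p = 0.000617) and by 1.10 ± 0.14 against the CRY2 line (2.14-fold, edgeR adjusted p = 0.00329). Without CRY2 library 1, the second of these calls was lost. In the CRY2 line against the parent line the log2 fold change was 0.59 ± 0.14 (edgeR adjusted p = 0.0505), and it was called in 7 of 16 refits, among them that with DESeq2 (adjusted p = 0.00139).

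**Figure D2:**
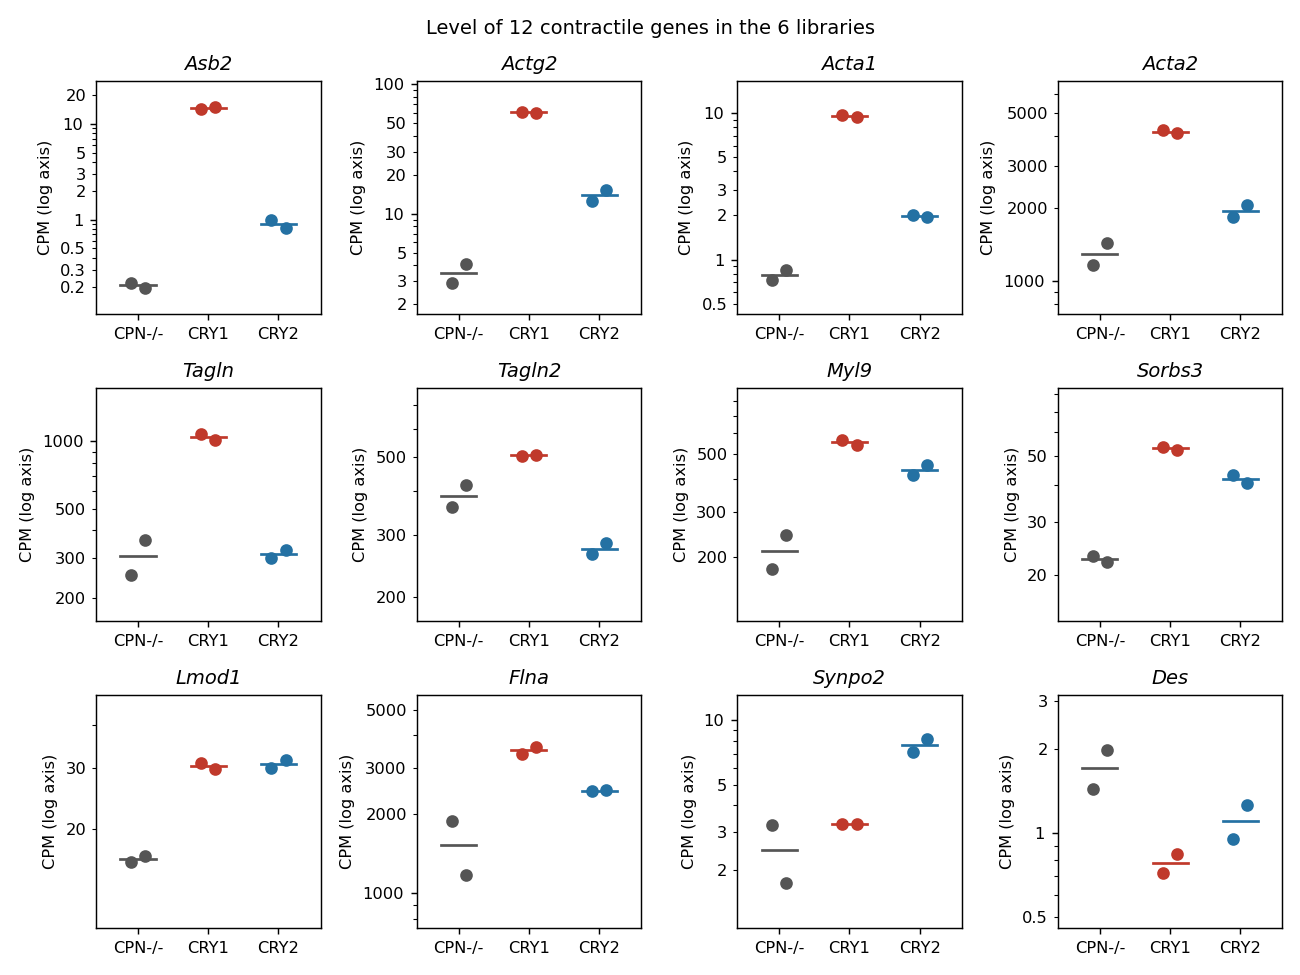
Level of 12 members in each library, in CPM on a log axis; points are libraries, bars the mean of the 2 libraries of a line. Asb2, Actg2, Acta1 and Acta2 keep the order parent line, CRY2 line, CRY1 line in all libraries, Tagln is high in the CRY1 line alone (1020 and 1078 CPM), Lmod1 is level in the CRY lines (29.8 to 31.6 CPM), and Synpo2 is highest in the CRY2 line (7.13 and 8.15 CPM).

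The share of each paralog in the summed CPM per kilobase of its family was computed in each library. The 4 muscle actins made up 20.97% ± 0.10 (SD, n = 2) of all actin mRNA in the parent line, 45.1% ± 1.1 in the CRY1 line and 29.2% ± 0.31 in the CRY2 line. Nearly all of this was Acta2, with 20.9%, 44.0% and 28.9%. Actg2 made up 0.0857%, 0.973% and 0.314%, and Acta1 0.0179%, 0.142% and 0.0417%. The cytoplasmic actins took the rest: Actb made up 54.4%, 41.2% and 48.1%, and Actg1 24.6%, 13.7% and 22.7%. The shares are given without a test, and with 2 libraries against 2 an exact permutation test allows no p below 0.333. With the median in place of the longest transcript length, the gain of the muscle actins in the CRY1 line over the parent line was 20.1 in place of 24.1 percentage points.

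**Figure D3:**
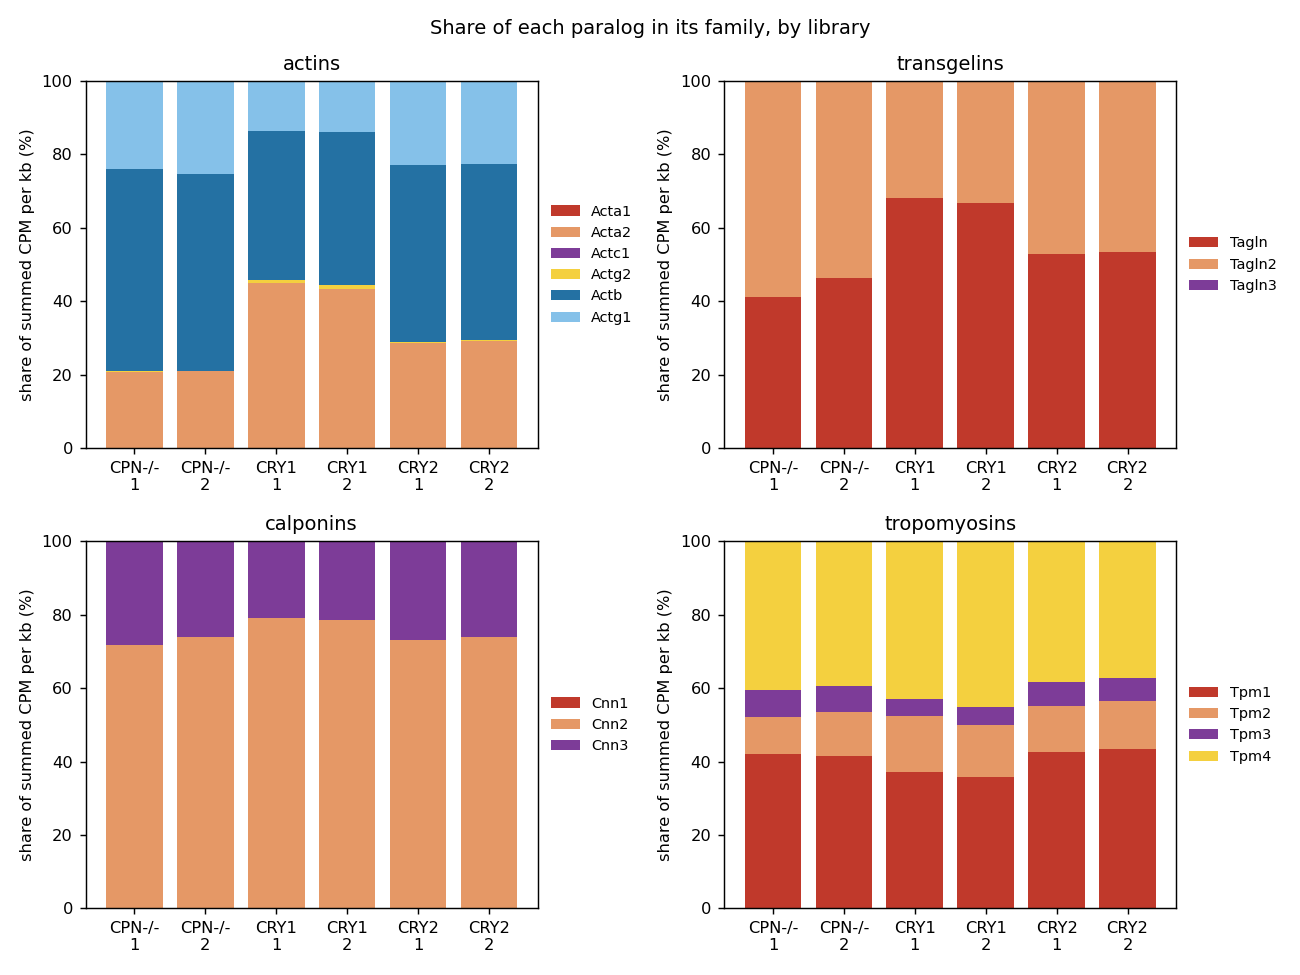
Share of each paralog in the summed CPM per kilobase of its family, in percent, for each of the 6 libraries. The muscle actins (nearly all Acta2) take 20.90% and 21.04% in the parent line, 44.4% and 45.9% in the CRY1 line and 29.0% to 29.4% in the CRY2 line. Tagln takes most of the transgelins in both CRY lines. In the CRY2 line against the parent line, the level of Tagln itself was not called and that of Tagln2 fell.

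Transgelin (Tagln, also SM22-alpha) is an actin-bundling protein used as an early smooth muscle marker, and Tagln2 is its widely expressed paralog. Tagln, at chr9:45929628-45936058, was at 253 and 361 CPM in the parent line, 1078 and 1020 in the CRY1 line and 300 and 327 in the CRY2 line. The CRY2 values lay between the 2 parent values. It rose in the CRY1 line by 1.77 ± 0.18 against the parent line (3.42-fold, edgeR adjusted p = 0.00122) and by 1.74 ± 0.18 against the CRY2 line (3.35-fold, edgeR adjusted p = 0.00146), and its log2 fold change in the CRY2 line against the parent line was 0.03 ± 0.17 (edgeR adjusted p = 0.925). Its exons share 1349 bases in all with Gm48529 and Pcsk7 on the other strand. The level of Pcsk7 was 34.7 to 41.5 CPM in the 6 libraries, with a log2 fold change of 0.18 in the CRY1 line (edgeR adjusted p = 0.197). That of Gm48529 was not examined.

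Tagln2 was at 360 and 415 CPM in the parent line, 502 and 506 in the CRY1 line and 265 and 284 in the CRY2 line. The lines did not overlap, and the parent line lay between the CRY lines. It rose by 0.38 ± 0.11 in the CRY1 line (edgeR adjusted p = 0.0456) and fell by 0.50 ± 0.11 in the CRY2 line (edgeR adjusted p = 0.0442), and the CRY lines differed by 0.88 ± 0.11 (edgeR adjusted p = 0.00326). All 3 calls were lost without either CRY1 library. As a share of the transgelins per kilobase, Tagln made up 43.8% ± 3.7 (SD, n = 2) in the parent line, 67.4% ± 0.97 in the CRY1 line and 53.2% ± 0.28 in the CRY2 line. The greater share in the CRY2 line went with a lower level of Tagln2, since that of Tagln was not called there against the parent line.

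The calponins, which bind actin and tropomyosin, showed no called change. The smooth muscle calponin Cnn1 was at 0.252 and 0.269 CPM in the parent line (8 and 7 counts), 0.0553 and 0.0973 in the CRY1 line and 0.0735 and 0.111 in the CRY2 line (2 and 3 counts in each), and was too low to test. Cnn2 was at 1215 and 1481 CPM in the parent line, 1781 and 1736 in the CRY1 line and 1603 and 1708 in the CRY2 line. Its log2 fold change was 0.38 ± 0.13 in the CRY1 line (edgeR adjusted p = 0.0673) and 0.30 ± 0.13 in the CRY2 line (edgeR adjusted p = 0.208). Both CRY lines lay above both parent libraries, but neither difference was called. Cnn3 has stretches near-identical to transcripts of 3 other genes, so that its count is uncertain. Among them, Gm42928 lies at the same place on the other strand and shares 538 exon bases with Cnn3. Cnn3 was at 433 and 468 CPM in the parent line, 426 in both CRY1 libraries and 531 and 544 in the CRY2 line. Its log2 fold changes were -0.08 ± 0.10, 0.25 ± 0.10 and, in the CRY1 line against the CRY2 line, -0.34 ± 0.10 (edgeR adjusted p = 0.059). Cnn2 made up 72.8% of the calponins per kilobase in the parent line, 78.8% in the CRY1 line and 73.5% in the CRY2 line.

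Among the myosin genes, the regulatory light chain Myl9 was called and the heavy chains were not. Myl9 was at 181 and 243 CPM in the parent line, 565 and 543 in the CRY1 line and 413 and 451 in the CRY2 line. Both CRY lines were above both parent libraries. It rose by 1.39 ± 0.15 in the CRY1 line (2.62-fold, edgeR adjusted p = 0.00189) and by 1.03 ± 0.15 in the CRY2 line (2.04-fold, edgeR adjusted p = 0.0108), and the log2 difference between the CRY lines was 0.36 ± 0.15 (edgeR adjusted p = 0.163). The smooth muscle heavy chain Myh11, a late differentiation marker, had 15 to 34 counts per library (0.576 to 1.10 CPM) and log2 fold changes of 0.57 ± 0.27 and 0.52 ± 0.28 against the parent line. The nonmuscle heavy chains Myh9 and Myh10 had log2 fold changes of 0.39 and 0.10 in the CRY1 line and 0.40 and 0.21 in the CRY2 line. Per kilobase, Myh9 made up 82.9% of these heavy chains in the parent line, 85.6% in the CRY1 line and 84.7% in the CRY2 line, and Myh11 0.0564%, 0.0654% and 0.0621%. The essential light chain Myl6, with 5 near-identical copies, had log2 fold changes of -0.10 and 0.11 against the parent line.

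Of the enzymes that set light chain phosphorylation, Mylk was called between the CRY lines and Ppp1r12a in the CRY1 line. Mylk, myosin light chain kinase, had a log2 fold change of -0.24 ± 0.23 in the CRY1 line and 0.64 ± 0.23 in the CRY2 line against the parent line, and was lower in the CRY1 line than in the CRY2 line by -0.88 ± 0.23 on the log2 scale (edgeR adjusted p = 0.0431), a call lost without any 1 of the 4 libraries of the CRY lines. The phosphatase targeting subunit Ppp1r12a rose by 0.69 ± 0.20 in the CRY1 line (edgeR adjusted p = 0.0483), lost without any 1 of the same 4 libraries, and its log2 fold change in the CRY2 line was 0.67 ± 0.20 (edgeR adjusted p = 0.111). Ppp1r12b, its muscle paralog, had 494 and 140 counts in the 2 parent libraries and log2 fold changes of 1.21 ± 0.40 and 0.99 ± 0.40, neither of which was called.

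Of the 7 thin filament genes, 4 (Lmod1, Tpm2, Tpm4 and Cald1) rose in the CRY1 line, where Tnnt2 gets no test, and 1 (Lmod1) in the CRY2 line. Of all tested genes, 11.2% and 2.58% were called higher. As for the whole list, nothing is read from the count in the CRY1 line. Leiomodin 1 (Lmod1), which nucleates actin filaments in smooth muscle, was at 16.1 and 16.7 CPM in the parent line, 31.0 and 29.8 in the CRY1 line and 30.02 and 31.6 in the CRY2 line. It rose by 0.89 ± 0.10 (1.86-fold, edgeR adjusted p = 0.00184) and by 0.91 ± 0.10 (1.88-fold, edgeR adjusted p = 0.00342). Of the tropomyosins, which lie along the actin filament, Tpm2 rose by 0.73 ± 0.16 and Tpm4 by 0.47 ± 0.11 in the CRY1 line (edgeR adjusted p = 0.0205 and 0.0249), and the values in the CRY2 line were 0.28 and -0.01. Tpm1 and Tpm3 were at 0.12 and -0.29 in the CRY1 line and 0.11 and -0.10 in the CRY2 line, and were not called. Tpm2 made up 10.96% ± 1.4 (SD, n = 2) of the tropomyosins per kilobase in the parent line, 14.6% ± 0.59 in the CRY1 line and 12.8% ± 0.38 in the CRY2 line. Tpm3 and Tpm4 have 1 near-identical copy each, and gene counts do not separate the muscle and nonmuscle isoforms of Tpm1, Cald1, Mylk, Smtn or Vcl.

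Caldesmon (Cald1), which inhibits the actin-activated myosin ATPase, rose by 0.62 ± 0.14 in the CRY1 line (edgeR adjusted p = 0.0226) and had a log2 fold change of 0.52 ± 0.14 in the CRY2 line (edgeR adjusted p = 0.0851). Cardiac troponin T (Tnnt2) was at 0.314 and 0.269 CPM in the parent line (10 and 7 counts), 0.747 and 0.584 in the CRY1 line (27 and 18 counts) and 0.294 and 0.111 in the CRY2 line (8 and 3 counts). Since it passed the count limit only through the CRY1 line, its log2 fold changes of 1.18 ± 0.41 against the parent line and 1.70 ± 0.45 against the CRY2 line are given without a test. The log2 fold change in the CRY2 line against the parent line was -0.52 ± 0.54, not called.

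The 10 filament, crosslinker and adhesion genes held 6 that rose and 1 that fell in the CRY1 line, and 2 that rose in the CRY2 line. The shares of all tested genes were 11.2%, 13.1% and 2.58%. Here too, nothing is read from the counts in the CRY1 line. Filamin A (Flna), which crosslinks actin, was at 1892 and 1173 CPM in the parent line, 3407 and 3598 in the CRY1 line and 2463 and 2464 in the CRY2 line. It rose by 1.19 ± 0.21 in the CRY1 line (2.29-fold, edgeR adjusted p = 0.0103), a call lost without either CRY1 library, and its log2 fold change in the CRY2 line was 0.69 ± 0.21 (edgeR adjusted p = 0.118). The muscle filamin Flnc had values of 0.34 and 0.36. Vinexin (Sorbs3), an adaptor that binds vinculin, was at 23.2 and 22.1 CPM in the parent line, 53.5 and 52.3 in the CRY1 line and 43.1 and 40.4 in the CRY2 line, with no overlap of the lines. It rose by 1.22 ± 0.10 (2.33-fold, edgeR adjusted p = 0.000522) and by 0.88 ± 0.10 (1.84-fold, edgeR adjusted p = 0.00342).

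Vinculin (Vcl), which links actin to integrin adhesions, rose by 0.99 ± 0.17 in the CRY1 line (1.98-fold, edgeR adjusted p = 0.00803). Its exons share 2090 bases with Ap3m1 on the other strand, which was at 43.6 to 58.7 CPM in the 6 libraries and had a log2 fold change of 0.21 (edgeR adjusted p = 0.206), compared with 228 to 562 CPM for Vcl. The crosslinker Actn1 rose by 0.78 ± 0.17, the LIM protein Csrp1 by 0.66 ± 0.12 and the PDZ-LIM protein Pdlim7 by 0.36 ± 0.10 in the CRY1 line (edgeR adjusted p = 0.0189, 0.0106 and 0.0457). In the CRY2 line the log2 fold changes of Vcl, Actn1, Csrp1 and Pdlim7 were 0.53, 0.29, 0.26 and -0.06, not called. Pdlim7 was also higher in the CRY1 line than in the CRY2 line, by 0.42 ± 0.10 (edgeR adjusted p = 0.0373), as was Tpm4, by 0.48 ± 0.11 (edgeR adjusted p = 0.029). Smoothelin (Smtn), a marker of contractile smooth muscle, had log2 fold changes of 0.18 and 0.03.

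Synpo2 was highest in the CRY2 line, and Des was lowest in the CRY1 line. Synaptopodin 2 (Synpo2), an actin-binding protein of the Z-disc and dense bodies, was at 3.24 and 1.73 CPM in the parent line, 3.27 and 3.28 in the CRY1 line and 7.13 and 8.15 in the CRY2 line. It rose by 1.599 ± 0.26 in the CRY2 line against the parent line (3.03-fold, edgeR adjusted p = 0.0161) and was lower in the CRY1 line than in the CRY2 line by -1.22 ± 0.25 (edgeR adjusted p = 0.0207). The intermediate filament gene desmin (Des) was at 1.45 and 2.00 CPM in the parent line, 0.719 and 0.843 in the CRY1 line and 0.955 and 1.26 in the CRY2 line, from 26 to 52 counts per library. It fell by 1.13 ± 0.27 in the CRY1 line (edgeR adjusted p = 0.0269), and its log2 fold change in the CRY2 line was -0.62 ± 0.27 (edgeR adjusted p = 0.212). The 3 calls on Synpo2 and Des were lost without any 1 of the 4 libraries of the CRY lines, and that on Des also with DESeq2.

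Of the transcription factors, Srf was at 90.3 and 92.4 CPM in the parent line, 114 and 127 in the CRY1 line and 102 in both CRY2 libraries. It rose by 0.40 ± 0.10 in the CRY1 line (1.32-fold, edgeR adjusted p = 0.0251), a call lost without any 1 of the 4 libraries of the CRY lines, and its log2 fold change in the CRY2 line was 0.16 ± 0.10 (edgeR adjusted p = 0.336). Mkl1 was at 98.3 and 73.5 CPM in the parent line, 102 and 106 in the CRY1 line and 117 and 119 in the CRY2 line, with log2 fold changes of 0.27 ± 0.14 and 0.46 ± 0.14 against the parent line, not called. Mkl2 was at 47.1 and 25.3 CPM, 57.7 and 61.0 CPM, and 46.0 and 43.2 CPM in the 3 lines, with log2 fold changes of 0.71 ± 0.26 and 0.30 ± 0.26, not called. The 2 parent values of each coactivator lay far apart. Myocd had 0 counts in all 6 libraries.

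Other genes of the same pathways, which are not members, were counted from a list. Of 34 tested genes of the SRF and MRTF programme, 15 rose and 1 fell in the CRY1 line, 9 rose and 3 fell in the CRY2 line, and 9 were higher and 2 lower in the CRY1 line than in the CRY2 line. The shares of all tested genes called higher and lower were 11.2% and 13.1%, 2.58% and 4.08%, and 7.72% and 8.57% in these comparisons. This list was also chosen with earlier results known, so its counts are descriptions. The 1 gene that fell in the CRY1 line was Pdlim3. Kcnmb1 is counted among the 15 that rose and among the 9 higher in the CRY1 line than in the CRY2 line. Both genes, described below, passed the count filter of the test only through the line where they were high, so nothing is read from their calls. The median log2 fold changes of the list were 0.45, 0.16 and 0.22, and those of all tested genes -0.0073, -0.0076 and -0.0046. The Z-disc gene Ldb3 rose in both CRY lines, by 2.36 ± 0.12 (edgeR adjusted p = 0.000151) and 1.67 ± 0.12 (edgeR adjusted p = 0.000761). Ankrd1, a target of YAP and MRTF, rose by 1.24 ± 0.14 in the CRY1 line and fell by 1.17 ± 0.15 in the CRY2 line, and the CRY lines differed by 2.41 ± 0.15 (edgeR adjusted p = 0.000342). Lpp rose by 1.42 ± 0.31 in the CRY1 line, with the parent libraries far apart at 209 and 101 CPM. With the trend over transcript length removed, its log2 fold change was 1.06. Tns1 and Synm rose by 2.00 ± 0.28 and 1.67 ± 0.22 in the CRY2 line and by 1.27 ± 0.28 and 1.09 ± 0.22 in the CRY1 line. Neither was called between the CRY lines (edgeR adjusted p = 0.107 and 0.0934). The parent libraries were also far apart for Tns1, at 7.48 and 3.80 CPM. Casq2 rose by 1.20 ± 0.23 in the CRY2 line and was lower in the CRY1 line than in the CRY2 line by -1.51 ± 0.24.

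A pair of genes in this list was near 0 in a line. Kcnmb1, the smooth muscle subunit of a calcium-activated potassium channel, had 14 and 19 counts in the CRY1 line and 0 in the other 4 libraries, at least 9.39-fold higher than in the parent line against a floor of 3 counts over the line. Pdlim3 had 12 and 10 counts in the parent line, 0 in both CRY1 libraries and 2 and 0 in the CRY2 line, at least 8.59-fold lower in the CRY1 line against the same floor.

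The 2 parent libraries differed by transcript length. In the parent line, the log2 ratio of library 2 to library 1 had a median of -0.49 over the 21 members with a longest transcript of 3000 bases or more, from -1.53 (Ppp1r12b) to 0.74 (Myl6), and of 0.22 over the 15 shorter members. In the CRY1 line these medians were 0.06 and -0.01, and in the CRY2 line -0.01 and 0.08. Myl6, Tnnt2 and Pdlim7 are among the long members, but their longest coding transcripts have 1668, 1200 and 1915 bases. Across the 36 members of the parent line, Spearman's correlation of this ratio with length was -0.88, and across 12478 genes it was -0.66; all points of a line share the same 2 libraries. Without parent library 2, the log2 fold change in the CRY1 line was 0.90 for Flna in place of 1.19, 0.77 for Vcl in place of 0.99, 0.55 for Actn1 in place of 0.78 and 0.66 for Ppp1r12b in place of 1.21, and it was 2.06 for Tagln in place of 1.77 and 1.62 for Myl9 in place of 1.39. Without parent library 1 the values moved the other way, to 1.58 for Flna, 1.26 for Vcl, 1.06 for Actn1, 2.18 for Ppp1r12b, 1.54 for Tagln and 1.19 for Myl9. The trend over length was also removed from each library, and with it the part that differs between the 2 parent libraries. The median of the members against the parent line was then 0.58 in the CRY1 line and 0.43 in the CRY2 line. The count of called members in the CRY2 line was 20 in place of 8.

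**Figure D4:**
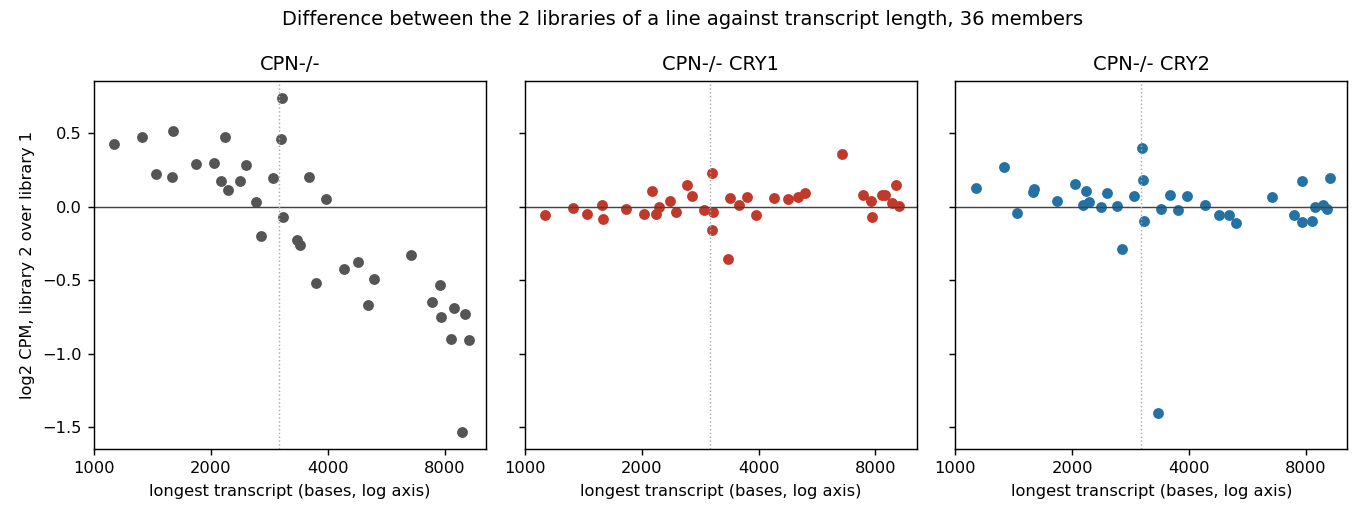
Log2 ratio of library 2 to library 1 in CPM against the longest transcript in bases (log axis), for the 36 members in each line; the dotted line marks 3000 bases. In the parent line the ratio falls with length (Spearman's correlation -0.88), from above 0 for most short members to -1.53 for Ppp1r12b, and in the CRY lines most members lie near 0.

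Whole chromosomes differed between the lines as well. The median log2 fold change of all tested genes on chromosome 19, which holds Acta2, was 0.31 in the CRY1 line against the parent line and 0.46 against the CRY2 line, and on chromosome 16, which holds Mylk, Myh11 and Mkl2, it was 0.27 and 0.35. On chromosome 3, which holds Cnn3, Tpm3 and Synpo2, it was -0.28 and -0.40, and on chromosome 15, which holds Myh9 and Mkl1, it was -0.36 and -0.43. In the CRY2 line against the parent line the medians of these 4 chromosomes were -0.17, -0.09, 0.11 and 0.05, and those of every other chromosome with a member lay between -0.16 and 0.11 in each comparison. With all chromosome medians set equal, the log2 fold change of Acta2 was 1.38 in the CRY1 line against the parent line and 0.64 against the CRY2 line, both still called. That of Synpo2 in the CRY1 line against the CRY2 line was -0.85 and no longer called, those of Myh9 and Mkl1 in the CRY1 line against the parent line were 0.76 and 0.65 and were called, and that of Cnn3 was 0.19. Asb2, Actg2, Acta1, Tagln, Myl9, Lmod1 and Sorbs3 lie on chromosomes 12, 6, 8, 9, 2, 1 and 14, where the median was between -0.13 and 0.11 in the CRY1 line against the parent line. The part of copy number in these values was not tested.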

How the data were processed

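The deposited tables hold whole read counts per NCBI Gene identifier for 27179 genes in 6 mRNA-seq libraries, and the authors neither normalized nor filtered these counts. Per the study's methods and the submitters' processing notes, stranded paired-end libraries were mapped to mm10 with STAR and counted with featureCounts. The annotation, the strand setting and the treatment of reads with several matches are not given in the sources used here. The library totals were between 25957409 and 36106949 counts.

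Counts were analysed with edgeR 4.0.16 in R 4.3.3. filterByExpr, with a minimum count of 10 and a minimum total of 15, left 14069 genes, and CPM used TMM factors. All 6 libraries entered 1 model with a term for the line. The 3 comparisons used two-sided quasi-likelihood tests with robust dispersions, with p-values of all tested genes adjusted by Benjamini-Hochberg. A gene was called at an adjusted p under 0.05. The SE is the absolute log2 fold change over the root of F. DESeq2 1.42.0 was an alternative. The fits were tested on simulated counts with planted changes.

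The members and the list of other genes were chosen with earlier results of these data known, so that counts over a list are descriptions. Asb2, Actg2 and Acta1 were known as large CRY1 increases and, like Tnnt2, which passed the count limit only through the CRY1 line, get no test in comparisons with that line. CPM in each library is given for the actins, calponins, transgelins, Srf, Myocd, Mkl1, Mkl2 and each member called with a change of 1 or more on the log2 scale. Of the other pathway genes, at most the 4 called genes with the greatest fold change are named per comparison, and a further list of regulators is not reported here. Levels were divided by the length of the longest GENCODE transcript where paralogs are compared. Lengths were known for 12478 tested genes. Promoters and symbols came from RefSeq (GRCm38.p6), transcripts from GENCODE, and near-identical transcripts were searched with BLAST+ 2.17.0 at 95% identity over 150 bases or more. The alternatives were other normalizations, other count filters, a replicate block, the 4 libraries of the 2 lines compared, other thresholds, DESeq2, each library left out in turn, chromosome medians set equal, and the trend over transcript length removed. For the last, each library's deviation from the gene mean was fitted against log2 length by loess with a span of 0.5. The fit was removed from that library, which also takes out length trends between the 2 libraries of a line. The 2 libraries of a line came from separate RNA preparations of one culture line, so that p-values measure the spread between preparations. With 2 libraries against 2, the smallest two-sided exact permutation p is 0.333.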

Additional observations from a re-analysis of the deposited data

Results flagged for a closer look

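Tagln2 was called in opposite directions in the CRY lines. Relative to the parent line its log2 fold change was 0.38 in the CRY1 line and -0.50 in the CRY2 line, and the direct comparison of the CRY lines, which tests the difference, gave 0.88 ± 0.11 (quasi-likelihood test of edgeR, Benjamini-Hochberg adjusted p = 0.00326). The direct call held in 13 of 16 refits, and both comparisons with the parent share its libraries. The calls against the parent held in fewer refits. Both were lost with only the 4 libraries of the lines compared. That in the CRY1 line was also lost with upper-quartile normalization and with chromosome medians equal. That in the CRY2 line was also lost with a filter of 10 counts in every library. No library could be examined as an outlier, since each line has 2.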

How the results depend on the processing

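All settings except those named kept the 3 counts of called members within 1.5 times their values of 17 (CRY1 line against parent line), 8 (CRY2 line against parent line) and 7 (CRY1 line against CRY2 line). With only the 4 libraries of the lines compared the first count was 8 and the third 22. DESeq2 gave 13 for the second, and removing the trend over transcript length gave 20 for the second and 17 for the third. An adjusted p under 0.01 left 6, 4 and 3, and a log2 fold change of at least 1 left 6, 5 and 3. Leaving out 1 library gave 5 to 28, 2 to 26 and 1 to 21, where the lone library of a line is assumed to vary like the others. The cause was not tested. The replicate numbers did not pair the samples (correlations of same-numbered libraries -0.08, 0.14 and -0.03), and with the replicate block the counts were 18, 9 and 7. The gain of the muscle actins in share in the CRY1 line was 24.1 percentage points and 20.1 with the median transcript length, and 23.4 to 24.9 with 1 library left out.

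Of 84 log2 fold changes, none that was called changed sign. In the CRY1 line against the parent, Cnn3 was 0.19 with chromosome medians equal and 0.092 with the length trend removed, which also gave Myh10 -0.11, and leaving out 1 library moved Myh10 over -0.13 to 0.39, Myl6 over -0.43 to 0.32 and Mylk over -0.55 to 0.19. Between the CRY lines, Cnn3 was 0.040 with chromosome medians equal. In the CRY2 line against the parent, chromosome medians set equal gave Myl6 -0.0095, and the length trend removed gave Myh10 -0.011, Tpm3 0.054 and Tpm4 0.16. With 1 library left out the values there ran over -0.20 to 0.32 for Tagln, -0.020 to 0.50 for Myh10, -0.22 to 0.53 for Myl6, -0.18 to 9.25e-05 for Tpm3, -0.097 to 0.085 for Tpm4, -1.36 to 0.012 for Tnnt2, -0.083 to 0.17 for Smtn, -0.16 to 0.056 for Pdlim7 and -0.070 to 0.82 for Mkl2. The share of Cnn2 in the CRY2 line minus the parent ran over -0.51 to 1.84 percentage points. With 2 libraries a line, changes of members with few counts (Tnnt2, Myh11 and Des) are the least certain.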
